A study of Mus musculus with 16 samples.

Results

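The T cell receptors of control mice were compared between day 14 and day 5 of growth of a liver tumour. Of the 8 T cell receptor (TCR) libraries of the series, 4 came from control mice, with 2 at day 5 and 2 at day 14, and they held 3569 of the 5908 cells. A cell was a barcode that the authors called a cell and that carried a high-confidence, productive contig of the TCR alpha (TRA) or beta (TRB) chain. Where a cell had several chains of a kind, it was represented by the one with most unique molecular identifiers (UMIs, tags that count captured RNA molecules). Day 5 libraries 1 and 2 gave 598 and 742 cells, and day 14 libraries 1 and 2 gave 1404 and 825 cells.

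Hepa1-6 cells, a mouse hepatoma line, had been mixed with Matrigel and implanted into the liver of C57BL/6 mice, and infiltrating cells were taken from the dissociated tumour for droplet capture of RNA 5′ ends. The control mice were CD4creMatr3WT/WT, so they carried Cre recombinase driven by the Cd4 promoter and intact alleles of Matr3, which encodes a nuclear protein that binds RNA. The knockout (KO) mice of the same series were CD4creMatr3fl/fl and were sampled on the same days. The Cd4 promoter is active while T cells pass through the thymus, so such a Cre acts in CD8 as well as in CD4 T cells. Whether the libraries of a day were made from different animals is not stated in the labels, and p-values therefore speak only of the spread between libraries. Receptor tables hold no Matr3 reads, and the RNA libraries were not analysed here.

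A T cell builds each receptor chain by joining 1 V and 1 J segment (and, in TRB, a D segment) with bases lost and added at the joins. The joined stretch encodes the CDR3 loop, which touches the peptide that is presented to the cell. Daughter cells inherit the same joins, so cells with the same pair of rearranged chains form a clone, and a clone grows when its receptor meets antigen. Invariant natural killer T (iNKT) cells are an exception: they share an almost fixed TRAV11 to TRAJ18 alpha chain that recognises lipids on CD1d, and they are abundant in mouse liver.

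The 4 control libraries held 9592 to 31936 UMIs in productive chains, and 452 to 1189 cells had both chains (paired cells). TRA chains had a median of 4 to 5 UMIs and TRB chains one of 10 to 12, so most receptor calls rest on few molecules. Reads per UMI ran from 444 to 1663 and were lower in both day 14 libraries. Barcodes with 2 or more TRB or 3 or more TRA chains, which can be doublets, made up 1.33% to 3.92% of cells and were kept. At most 2 cell barcodes were common to any pair of these libraries. A cell had to carry a TRA or TRB chain, so finding these chains is no test of cell type. No cell barcode of the control libraries held an immunoglobulin contig or a productive delta or gamma chain.

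Most T cells had a receptor of their own at day 5, and most belonged to expanded clones at day 14. Cells whose TRA and TRB chains matched in segments and CDR3 nucleotides were counted as 1 clonotype, which was called expanded with 2 or more cells. At an equal depth of 452 paired cells, expanded clonotypes held 4.42% and 13.0% of the paired cells in the day 5 libraries. They held 57.6% and 60.4% in the day 14 libraries. The groups did not overlap, and the difference was 50.2 percentage points (day 5 8.74% ± 6.10, day 14 59.0% ± 1.98, SD, n = 2 each). The 2 day 5 libraries differed from each other more than the 2 day 14 libraries did.

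The rise in expanded clonotypes was concentrated in a few large clones. The 10 most frequent clonotypes held 5.53% and 9.05% of paired cells at day 5 and 36.2% and 40.8% at day 14. Drawing 2 cells from a library gave the same clonotype with a chance of 0.0530% and 0.111% at day 5 against 1.98% and 3.55% at day 14. No day 5 library had a clonotype of 20 or more cells. At day 14 there were 7 such clonotypes in library 1 and 4 in library 2, and they held 31.9% (95% Wilson interval 29.3 to 34.6) and 31.5% (28.1 to 35.0) of the paired cells. These intervals cover counting error only. In each of these measures both day 14 libraries lay above both day 5 libraries, and the two-sided exact permutation p was 0.333, the smallest that 6 relabelings of 2 against 2 libraries allow. After Benjamini-Hochberg adjustment over the 12 measures compared it was 0.40 by the same exact permutation test, so no measure below that rests on this test can pass 0.05.

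**Figure D1:**
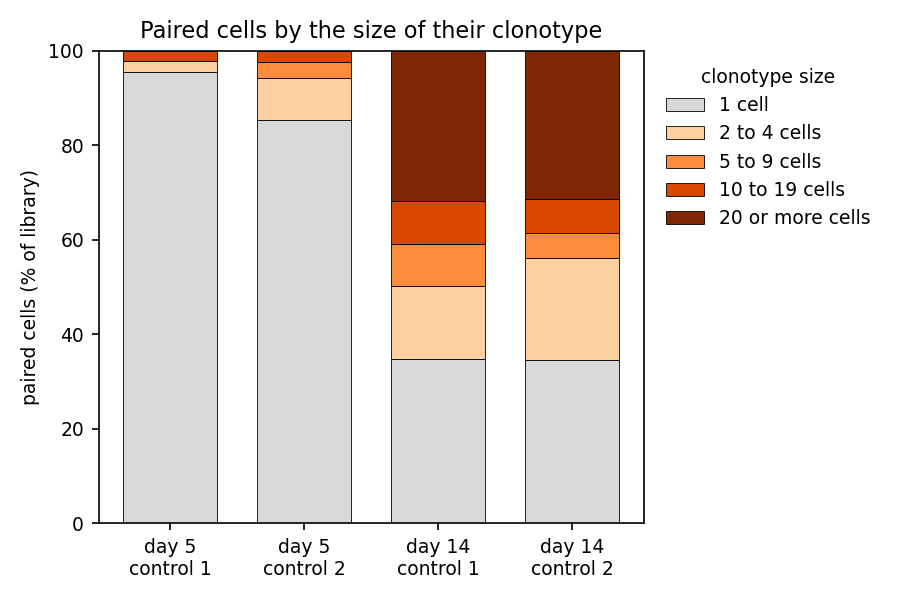
Share of paired cells (vertical axis, % of the library) in clonotypes of 1 cell, 2 to 4, 5 to 9, 10 to 19, and 20 or more cells, with 1 stacked bar for each control library and all paired cells counted. Clonotypes seen in 1 cell held 95.6% and 85.4% at day 5 and 34.7% and 34.5% at day 14.

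Nearly all cells of expanded clonotypes were conventional T cells and not iNKT-type cells, which are those with TRAV11 joined to TRAJ18. Among conventional paired cells, expanded clonotypes held 6.35% and 17.6% at day 5 and 67.5% in each library at day 14, without equal depth. Among iNKT-type paired cells they held 0 of 137 and 10 of 158 cells at day 5, and 0 of 39 and 2 of 23 at day 14. The largest iNKT-type clonotype of any control library held 4 cells. With 39 and 23 cells the day 14 shares are loosely bounded, with upper 95% Wilson limits of 8.97% and 26.8%.

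The most frequent clonotypes differed between the 2 day 14 libraries in most of their segments. In library 1 the most frequent paired TRAV14-1–TRAJ24 with TRBV19–TRBJ1-4 and held 98 of 1189 paired cells (8.24%). It was followed by TRAV7-6–TRAJ22 with TRBV5–TRBJ2-7 (87 cells) and TRAV6-4–TRAJ39 with TRBV17–TRBJ1-1 (68 cells). In library 2 the most frequent paired TRAV7-5–TRAJ50 with TRBV13-1–TRBJ1-1 and held 111 of 696 paired cells (15.9%). It was followed by TRAV5-1–TRAJ27 with TRBV12-1–TRBJ2-5 (45 cells) and TRAV6-6–TRAJ43 with the same TRBV13-1–TRBJ1-1 chain (34 cells). At day 5 the most frequent were TRAV5-4–TRAJ5 with TRBV19–TRBJ2-7 in library 1 (10 cells) and TRAV9-1–TRAJ22 with TRBV26–TRBJ1-2 in library 2 (15 cells). None of these was found in another control library.

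The most frequent TRB chain of each day 14 library came with a pair of TRA chains. T cells can rearrange both TRA alleles, so a clone may carry 2 productive alpha chains, and the rule of 1 chain per cell then splits it. In library 1 the TRBV17–TRBJ1-1 chain was found in 101 cells, and TRAV6-4–TRAJ39 and TRAV16–TRAJ40 occurred together in 75 of them. In library 2 the TRBV13-1–TRBJ1-1 chain was found in 150 cells, and TRAV7-5–TRAJ50 and TRAV6-6–TRAJ43 occurred together in 101 of them. Counted by TRB chain, this clone made up 18.8% of the TRB cells of library 2.

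Cells with 2 productive TRA chains were a larger share at day 14, and most of them there came from these 2 clones. Such cells made up 7.74% and 7.07% of paired cells at day 5 and 12.5% and 19.3% at day 14. Without the most frequent TRB chain of each library, an alternative chosen after seeing the data, the shares were 7.92% and 7.25% at day 5 against 6.78% and 5.99% at day 14. Both day 14 libraries then lay below both day 5 libraries. With each clonotype counted once, both again lay above, at 8.01% and 7.33% at day 5 against 11.2% and 9.78% at day 14, and outside expanded clonotypes the difference was 3.46 percentage points. The direction thus depends on which cells are counted, and without day 14 library 2 the difference of 8.48 points over all cells was 5.12. Without iNKT-type cells the mean shares were 9.90% at day 5 and 16.3% at day 14, a difference of 6.41 points. The counts by clonotype and outside expanded clonotypes still include iNKT-type cells, whose share differed between the days. The TRBV17 and TRBV13-1 clones held 50.3% and 75.4% of all cells with 2 TRA chains in their libraries.

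The iNKT-type alpha chain was carried by many TRA cells at day 5 and by few at day 14. Such cells numbered 138 of 463 TRA cells in day 5 library 1 (29.8%, 95% Wilson interval 25.8 to 34.1) and 158 of 615 in library 2 (25.7%, 22.4 to 29.3). At day 14 they numbered 40 of 1236 (3.24%, 2.39 to 4.38) and 23 of 723 (3.18%, 2.13 to 4.73). The 2 libraries of each day lay close together, the days were far apart, and the difference was -24.5 percentage points (exact permutation p = 0.333). A share falls when cells of other kinds become more numerous, and whether clone growth lowered this one was not tested. The mean share among cells outside expanded clonotypes was 29.6% at day 5 and 8.28% at day 14, a comparison added after seeing the data. A cell in that set can still belong to a clone whose other cells were not captured, so the set does not remove clone growth. In such data, fewer iNKT-type cells in the tumour and more cells of other kinds cannot be told apart.

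Most iNKT-type alpha chains had 1 protein form on both days. This form of the CDR3, of 15 residues, made up 91.3% and 96.2% of iNKT-type alpha chains at day 5 and 87.5% and 78.3% at day 14. It was encoded by 4 or 5 nucleotide forms in every control library. The 4 most frequent forms are printed because they show how the same chain was made again and again from separate joins: they differ in the base in capitals, at the V to J join. Counts are cells over the 4 control libraries.
iNKT-type alpha, 141 cells: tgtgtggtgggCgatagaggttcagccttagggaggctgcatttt
iNKT-type alpha, 84 cells: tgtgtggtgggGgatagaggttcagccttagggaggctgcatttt
iNKT-type alpha, 65 cells: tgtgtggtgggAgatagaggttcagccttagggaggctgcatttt
iNKT-type alpha, 36 cells: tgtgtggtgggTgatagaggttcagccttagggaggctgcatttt
The form with C at that base made up 39.9% and 39.2% of iNKT-type cells at day 5 and 37.5% and 39.1% at day 14. The known partner segments, V beta 8 (TRBV13), V beta 7 (TRBV29) and V beta 2 (TRBV1), with the joint name below, were on 92.0% and 94.9% of paired iNKT-type cells at day 5 and on 89.7% and 82.6% at day 14.

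Mucosal-associated invariant T (MAIT) cells, which recognise vitamin B metabolites through TRAV1 joined to TRAJ33, were nearly absent on both days. Day 5 library 2 and day 14 library 2 held 1 such cell each. The other 2 control libraries held 0, which allows a share of up to 0.648% of TRA cells at day 5 and 0.243% at day 14.

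Segment use was tested with edgeR's quasi-likelihood test on cell counts, relative to the TRA or TRB cells of each library. Of 98 segments tested, 4 passed an adjusted p of 0.05 (4.08%), with 3 lower at day 14 (3.06% of those tested) and 1 higher (1.02%). Without iNKT-type cells edgeR called 0, with 11 at an unadjusted p under 0.05 against 16 with them. Of the 3 that fell, TRAV11 and TRAJ18 are the alpha segments of the iNKT receptor. TRAV11, whose 2 near-identical copies were counted together, was used by 30.0% and 26.2% of TRA cells at day 5 and 3.40% and 3.46% at day 14 (log2 fold change -3.03 ± 0.27 SE, edgeR adjusted p = 7.7e-05). TRAJ18 (chromosome 14, 54200777 to 54200842, GRCm38, a J segment) was used by 31.3% and 27.2% at day 5 and 3.72% and 3.73% at day 14 (-2.96 ± 0.27, edgeR adjusted p = 7.7e-05). These are the alpha segments of 1 kind of cell, so they are not separate findings.

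The third was TRBV12-2+TRBV13-2, a joint name in the deposited tables made of the names of a pair of V beta segments. The labels do not say which of the pair such a chain used. TRBV13-2 is the V beta 8 segment that most iNKT receptors use. At day 5, 65 of the 120 and 75 of the 139 cells with the joint name were paired iNKT-type cells. The joint name covered 20.4% and 18.9% of TRB cells at day 5 and 6.48% and 6.14% at day 14 (log2 fold change -1.64 ± 0.24 SE, edgeR adjusted p = 0.0026). TRBV13-2 under its own name (chromosome 6, 41121396 to 41121832) covered 3.07% and 2.04% at day 5 and 0.737% and 0.627% at day 14 (-1.86 ± 0.59, edgeR adjusted p = 0.144). The days did not overlap for either name, and the second did not pass the test. The call of the joint name was lost without day 5 library 1 (-1.58, edgeR adjusted p = 0.0644) and without iNKT-type cells (-1.15, 0.122).

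TRAJ27 (chromosome 14, 54192303 to 54192361, a J segment) was the segment that rose. It was used by 2.16% and 2.93% of TRA cells at day 5 and by 11.5% and 16.3% at day 14. Between the days it rose by 2.43 ± 0.40 on the log2 scale (SE, edgeR adjusted p = 0.00404). Without iNKT-type cells the change was 2.02 and did not pass (edgeR adjusted p = 0.063). Leaving out day 5 library 1 or day 5 library 2 gave 2.24 (edgeR adjusted p = 0.104) and 2.67 (0.0537), so the call rests on having both.

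The next 4 segments by p did not pass over cells. TRBV3 (chromosome 6, 41048394 to 41048824) covered 4.94% and 6.12% of TRB cells at day 5 and 14.1% and 12.3% at day 14 (log2 fold change 1.25 ± 0.34 SE, edgeR adjusted p = 0.105). TRAV7-6 covered 1.51% and 1.14% of TRA cells at day 5 and 10.1% and 7.75% at day 14 (2.75 ± 0.81, edgeR adjusted p = 0.126). TRBJ1-3 (chromosome 6, 41534323 to 41534372) covered 6.81% and 5.44% of TRB cells at day 5 and 1.92% and 2.76% at day 14 (-1.39 ± 0.44, edgeR adjusted p = 0.144). The fourth was TRBV13-2. In all 4 the day 5 and day 14 libraries did not overlap, as in 19 segments higher at day 14 (19.4% of those tested) and 25 lower (25.5%).

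**Figure D2:**
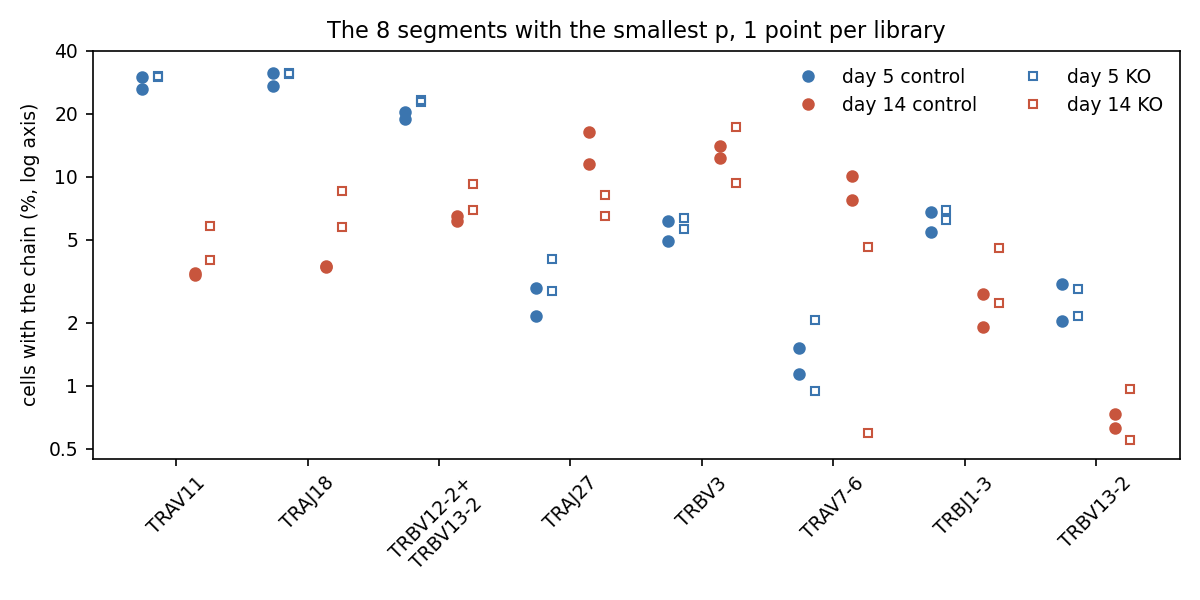
Share of cells with the chain that used each of the 8 segments with the smallest p (vertical axis, %, log scale), with 1 point per library, circles for control and squares for KO, blue for day 5 and red for day 14. TRAV11 and TRAJ18 lie near 30% at day 5 and under 4% at day 14 in control mice, and TRAJ27 lies under 3% at day 5 and above 11% at day 14.

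Counting each clonotype once separates segments that many clones used from segments that 1 large clone used. By that count 7 segments passed, the same 4 and TRBV3, TRAV7-6 and TRBV13-1. TRAJ27 had a log2 fold change of 1.78, TRBV3 of 1.51 (edgeR adjusted p = 1.02e-09) and TRAV7-6 of 1.43 (0.0322). Over cells the edgeR adjusted p was 0.105 for TRBV3 and 0.126 for TRAV7-6. A p-value as small as that of TRBV3 rests on a spread that edgeR fits over all 8 libraries. With 2 libraries a day, the spread of 1 segment cannot be measured well, so its size should not be read closely. TRBV3 was used by 5.49% and 5.86% of clonotypes at day 5 and by 15.7% and 17.1% at day 14. TRAV7-6 was used by 1.37% and 1.28% of clonotypes at day 5 and by 4.27% and 2.53% at day 14, and most of its 125 and 56 day 14 cells (101 and 51) had the single combination with TRAJ22, TRBV5 and TRBJ2-7. That combination also made up 7 of the 515 clonotypes of day 14 library 1 and 6 of the 316 of library 2. Most TRAV7-6 clonotypes of library 2 were thus of this 1 combination. TRAV11 and TRAJ18 were at -1.93 and -1.90, and TRBJ1-3 at -0.26. TRBV13-1 went the other way, with 0.53 over cells (edgeR adjusted p = 0.718) and -0.77 over clonotypes (0.0322). Its cells made up 9.71% and 9.66% of TRB cells at day 5, 6.56% in day 14 library 1 and 21.7% in library 2, where 150 cells were of the 1 large clone. TRAJ50 (2.84 over cells, -0.52 over clonotypes) and TRAJ24 (2.17 and -1.03) are 2 more segments of a single large clone, and neither passed.

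**Figure D3:**
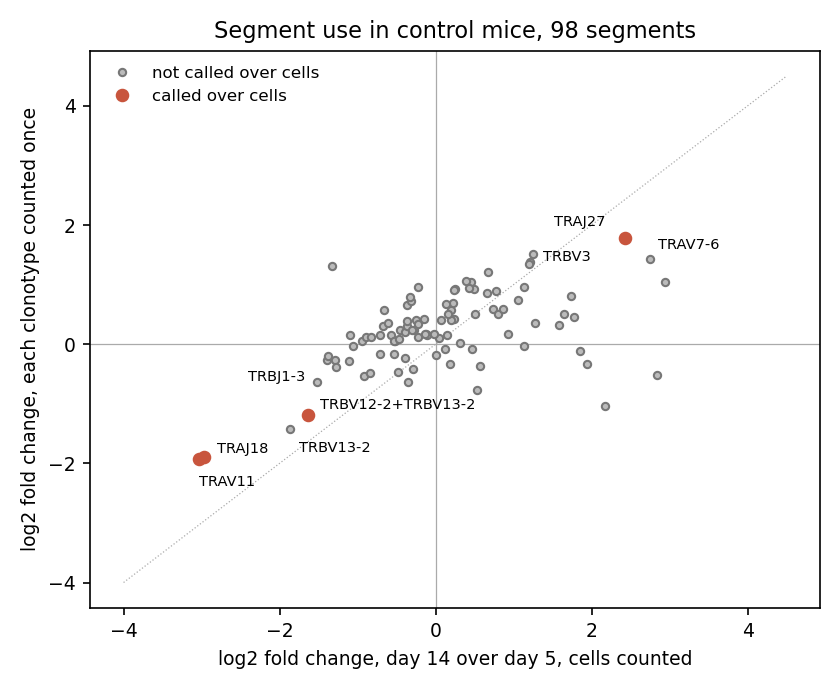
Log2 fold change of 98 segments between day 14 and day 5 in control mice, with cells counted (horizontal axis) against each clonotype counted once (vertical axis); the dotted line marks equal values and red points passed the test over cells. TRAV11 and TRAJ18 lie at the lower left on both axes, TRAJ27 and TRAV7-6 at the upper right, and several segments high over cells lie near or below 0 over clonotypes.

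The lists of related segments held few other calls, and the changes given for them are log2 fold changes over cells unless stated otherwise. The median over all 98 segments was -0.07 over cells and 0.22 with each clonotype counted once. TMM scaling moved it by 0.16 without changing a call. Of the 5 V beta segments that iNKT cells use, none passed and the median was -0.92, with TRBV13-2 at -1.86, TRBV13-3 at -0.94, TRBV29 at -0.92 and TRBV13-1 at 0.53. Together they covered 30.3% and 28.8% of TRB cells at day 5 and 19% and 33.7% at day 14, so the days overlapped. The 4 MAIT V beta segments had a median of -0.45, and the 3 V beta 8 segments a median of -0.94, with no call in either list. The V beta 8 segments covered 16.9% in each library at day 5 and 9.51% and 24.9% at day 14, which also overlapped. These lists share TRBV13 segments and do not include the joint name. That name was on 47.4% and 47.5% of paired iNKT-type cells at day 5, and it passed, as given above. The overlaps and the lack of calls therefore hold only for segments under their own names. Of the 2 V beta 5 segments, TRBV12-1 was at 1.13 and TRBV12-2 at -0.37, and neither passed. The joint name may hold TRBV12-2 chains as well, so the value of TRBV12-2 is for chains under its own name only.

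J alpha segments were grouped by their place in the locus, since those nearest the V segments are rearranged early in the thymus. Of 10 tested J alpha segments far from the V segments (TRAJ2 to TRAJ18), TRAJ18 fell and the median was -0.64. Outside iNKT-type cells such segments were used by 24.0% and 23.9% of TRA cells at day 5 and by 14.7% and 12.9% at day 14. This holds over cells. With each clonotype counted once the list's median was 0.26, and 8 of its 10 members were above 0, TRAJ5 among them (-1.32 over cells, 1.31 over clonotypes). Over all 98 tested segments that median was 0.22 and 68 were above 0, so the list was near the whole. Both clonotype counts include iNKT-type cells, unlike the shares just given. Of 12 in the middle (TRAJ21 to TRAJ38), TRAJ27 rose and the median was 0.16. The 12 near the V segments (TRAJ39 to TRAJ58) held no call and had a median of 0.28, led by TRAJ50, TRAJ39 (1.78) and TRAJ43 (1.74). TRAV2, the only tested V alpha segment of those far from the J segments, was at 1.20 and did not pass, and none of TRAV17, TRAV18, TRAV19 and TRAV21 had enough cells for the test.

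Neither J beta cluster held a call. The 6 tested segments of the first cluster had a median of -0.15, led by TRBJ1-5 (-1.52), and the 6 of the second had a median of -0.06, led by TRBJ2-1 (-0.71). The second cluster was used by 66.4% and 62.3% of TRB cells at day 5 and by 61.5% and 61.8% at day 14. With each clonotype counted once the shares were 65.0% and 67.2% at day 5 and 68.7% and 69.0% at day 14. The direction thus turned, from -2.72 to 2.76 percentage points, with no overlap either way (exact permutation p = 0.333 in each). Over cells the difference was -0.66 points without day 5 library 1 and -4.78 without day 5 library 2.

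More combinations of 4 segments were shared by separate clonotypes in the day 14 libraries. Outside iNKT-type cells, 1 and 3 combinations of TRAV, TRAJ, TRBV and TRBJ were shared by 2 or more clonotypes in the day 5 libraries, among 300 and 394 clonotypes. In the day 14 libraries 9 and 9 were, among 476 and 294 clonotypes, and those combinations held 144 and 169 cells. The combinations with 3 or more clonotypes in a control library were chosen for description after their values were seen. There were 4 of them, all found at day 14, and TRAJ27 was in 3.

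The combination with the most clonotypes was TRAV7-6–TRAJ22 with TRBV5–TRBJ2-7. It was made by 7 clonotypes of 101 cells in day 14 library 1 and by 6 clonotypes of 51 cells in library 2, and by 0 cells in both day 5 libraries. Their TRB CDR3 had 11 residues. TRB chains of that length with TRBV5 and TRBJ2-7 made up 114 of 1357 TRB cells in day 14 library 1 (8.40%, 95% Wilson interval 7.04 to 10.0) and 55 of 798 in library 2 (6.89%, 5.33 to 8.86). At day 5 there were 0 of 587 and 0 of 735, which allows shares of up to 0.511% and 0.408%. The 3 largest clonotypes of each day 14 library are printed to show how near these chains were, with capitals at the bases that differ within the set. The 5-cell and 4-cell clonotypes of library 1 differ in 1 base of the beta chain. Whether each clonotype arose from joins of its own was not tested.
TRBV5–TRBJ2-7 beta, day 14 library 1, 87 cells: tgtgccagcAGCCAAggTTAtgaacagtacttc
TRBV5–TRBJ2-7 beta, day 14 library 1, 5 cells: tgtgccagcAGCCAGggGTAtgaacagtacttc
TRBV5–TRBJ2-7 beta, day 14 library 1, 4 cells: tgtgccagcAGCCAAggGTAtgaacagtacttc
TRBV5–TRBJ2-7 beta, day 14 library 2, 29 cells: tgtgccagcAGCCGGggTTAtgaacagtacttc
TRBV5–TRBJ2-7 beta, day 14 library 2, 11 cells: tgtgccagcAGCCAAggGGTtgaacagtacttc
TRBV5–TRBJ2-7 beta, day 14 library 2, 7 cells: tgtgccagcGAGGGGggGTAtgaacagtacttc
In library 1 the family had 6 TRB nucleotide forms that encoded 3 protein forms, and in library 2 it had 5 nucleotide forms that encoded 5. The partner alpha chains of these clonotypes had 12 residues and differed in the 5 bases in capitals. The chain printed with 5 cells was also that of the 4-cell clonotype of library 1 and of the 11-cell clonotype of library 2.
TRAV7-6–TRAJ22 alpha, day 14 library 1, 87 cells: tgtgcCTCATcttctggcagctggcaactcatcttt
TRAV7-6–TRAJ22 alpha, day 14 library 1, 5 cells: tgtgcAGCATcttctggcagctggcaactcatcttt
TRAV7-6–TRAJ22 alpha, day 14 library 2, 29 cells: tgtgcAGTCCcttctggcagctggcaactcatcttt
TRAV7-6–TRAJ22 alpha, day 14 library 2, 7 cells: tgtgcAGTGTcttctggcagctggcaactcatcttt

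The rise of TRAJ27 was held in large part by its pairing with TRBV12-1 and TRBV3. At day 5, 1 of 10 and 2 of 17 paired TRAJ27 cells had TRBV12-1, and none had TRBV3. At day 14, 45 of 138 and 67 of 112 had TRBV12-1, and 56 of 138 and 22 of 112 had TRBV3. The TRBV3 cells were spread over 18 and 12 clonotypes, while the TRBV12-1 cells came from 2 and 6 clonotypes.

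TRBV12-1–TRBJ2-5 chains with a CDR3 of 12 residues were the base of the second family. They made up 42 of 1357 TRB cells in day 14 library 1 (3.1%) and 69 of 798 in library 2 (8.65%), and 0 in both day 5 libraries. Of the paired cells among them, 41 of 41 and 66 of 67 had TRAJ27. The V alpha segment was TRAV10 in library 1, and TRAV5-1 or TRAV10 in library 2. The chains of 2 or more cells are printed with capitals at the bases that differ within the set.
TRBV12-1–TRBJ2-5 beta with TRAV10, day 14 library 1, 41 cells: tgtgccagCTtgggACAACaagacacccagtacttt
TRBV12-1–TRBJ2-5 beta with TRAV5-1, day 14 library 2, 45 cells: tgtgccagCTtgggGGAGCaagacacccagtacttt
TRBV12-1–TRBJ2-5 beta with TRAV10, day 14 library 2, 16 cells: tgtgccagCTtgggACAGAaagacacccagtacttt
TRBV12-1–TRBJ2-5 beta with TRAV10, day 14 library 2, 2 cells: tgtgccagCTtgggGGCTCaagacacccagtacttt
TRBV12-1–TRBJ2-5 beta with TRAV5-1, day 14 library 2, 2 cells: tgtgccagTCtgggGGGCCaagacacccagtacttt
The remaining 2 combinations joined TRAV3-3–TRAJ27 to TRBV3 with TRBJ2-4 (4 clonotypes of 14 cells in library 1, 0 in library 2) or with TRBJ2-7 (3 clonotypes of 9 cells and 1 clonotype of 2 cells).

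Exact sharing between libraries was rare. Outside iNKT-type cells, no TRB chain of the same V, J and CDR3 protein was found both at day 5 and at day 14, or in both day 5 libraries. The 2 day 14 libraries had 6 such chains in common, among 551 and 337, and no chain was in 3 or more control libraries. Only 1 paired clonotype was identical in nucleotides in both, TRAV9-1–TRAJ23 with TRBV3–TRBJ2-7, with 11 cells in library 1 and 1 cell in library 2. It was also found in both KO libraries of day 14, with 2 cells and 1 cell. The 2 day 14 control libraries shared 0 cell barcodes.
TRAV9-1–TRAJ23 alpha of the shared clonotype: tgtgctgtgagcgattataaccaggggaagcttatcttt
TRBV3–TRBJ2-7 beta of the shared clonotype: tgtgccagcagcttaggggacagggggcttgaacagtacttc

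TRB CDR3 loops were shorter at day 14 when cells were counted. The mean over cells was 14.1 and 13.9 residues at day 5 and 13.5 and 13.6 at day 14. Chains of 11 residues made up 2.90% and 3.67% of TRB cells at day 5 and 17.1% and 9.52% at day 14. In day 14 library 1, 114 of the 232 such cells were of the TRBV5 family and 101 of the TRBV17 clone, and in library 2, 55 of 76 were of the TRBV5 family. With each TRB chain counted once, chains of 11 residues made up 3.01% and 4.14% at day 5 and 3.88% and 4.95% at day 14.

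Over clonotypes the difference in TRB CDR3 length was small. The means were 14.04 and 13.95 residues at day 5 and 13.85 and 13.87 at day 14, a difference of -0.14 (exact permutation p = 0.333) that was -0.088 without day 5 library 1. Without iNKT-type cells the days overlapped, with 13.96 and 13.82 at day 5 and 13.81 and 13.83 at day 14. The TRA CDR3 length over clonotypes also overlapped between the days, at 13.6 to 13.7 residues in all 4 libraries.

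**Figure D4:**
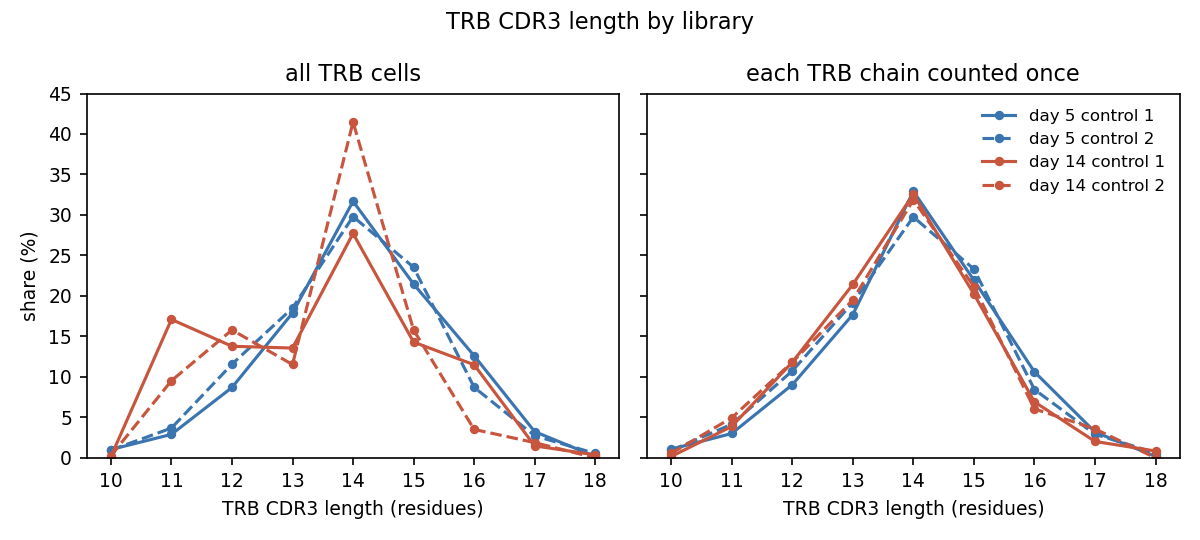
TRB CDR3 length in residues (horizontal axis) against the share in % (vertical axis) for the 4 control libraries, over all TRB cells on the left and with each TRB chain counted once on the right; blue lines are day 5 and red lines day 14. At 11 residues the day 14 libraries reach 17.1% and 9.52% of cells, and on the right all 4 lie between 3.01% and 4.95%.

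The composition of the middle of the TRB CDR3, without 4 residues at either end, depended on whether clonotypes or cells were counted. The mean Kyte-Doolittle hydropathy over clonotypes, in which higher values are more hydrophobic, was -1.23 and -1.15 at day 5 and -1.12 and -1.06 at day 14. Over cells it was -1.22 and -1.17 at day 5 and -1.23 in both libraries at day 14, so the direction turned. Over clonotypes the hydropathy difference of 0.0992 was 0.0602 without day 5 library 1. Net charge over clonotypes was -0.559 and -0.558 at day 5 and -0.505 and -0.489 at day 14, a difference of 0.0614. Over cells it was -0.599 and -0.536 at day 5 and -0.393 and -0.421 at day 14, a difference of 0.160. Over clonotypes without iNKT-type cells it was -0.500 and -0.485 at day 5 and -0.479 and -0.497 at day 14, and the days overlapped.

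TRA UMIs per cell were higher in both day 14 libraries. The mean of log2 UMIs of the TRA chain was 1.84 and 2.12 at day 5 and 2.31 and 2.38 at day 14, a difference of 0.37 (exact permutation p = 0.333). It was 0.23 without day 5 library 1. With each clonotype counted once it was 0.14 and outside expanded clonotypes 0.10, and in both the days overlapped. Among conventional cells with a receptor of their own it was 1.83 and 2.13 at day 5 and 1.97 and 2.15 at day 14, and the days overlapped. In day 14 clonotypes of 10 or more cells it was 2.56 and 2.67. At day 5 that size class was 1 clonotype in each library, at 1.21 over 10 cells and 2.68 over 15 cells.

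A TRA chain was also found in a larger share of cells in both day 14 libraries, in 77.0% and 82.7% of TRB cells at day 5 and in 87.6% and 87.2% at day 14. The mean of log2 TRB UMIs was 3.18 and 3.56 at day 5 and 3.43 and 3.52 at day 14, which overlapped. Sequencing depth per molecule moved with the day: there were 1663 and 1076 reads per UMI at day 5 and 746 and 444 at day 14. Its part in these values was not tested.

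**Figure D5:**
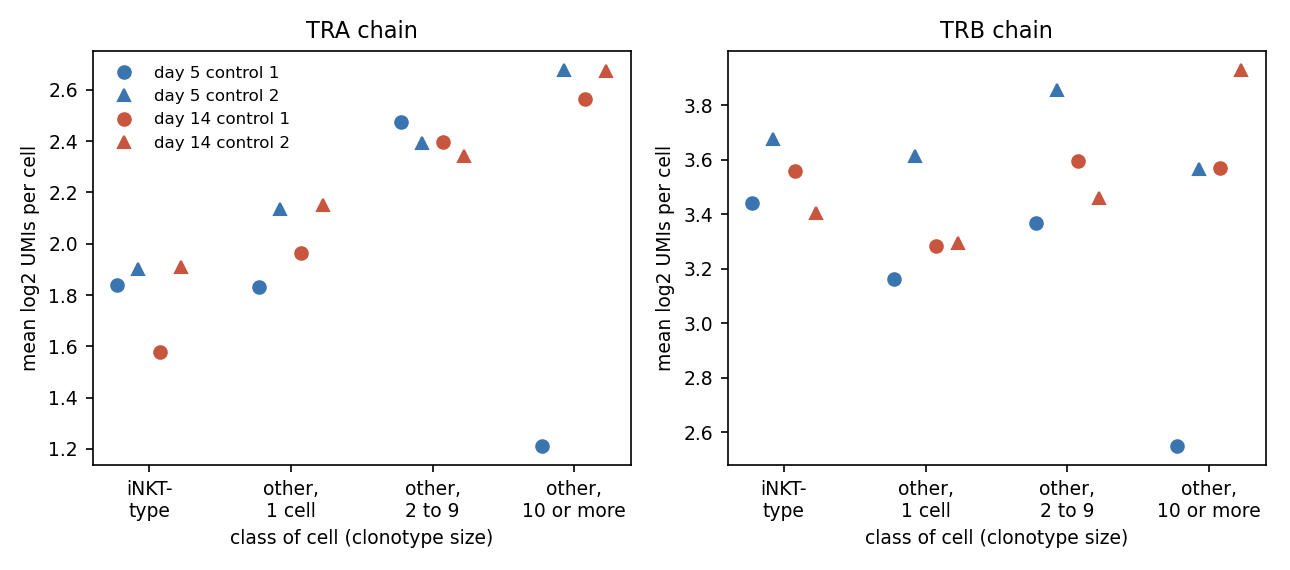
Mean log2 UMIs per cell (vertical axis) of the TRA chain (left) and the TRB chain (right) in iNKT-type cells and in other paired cells grouped by clonotype size (horizontal axis), with 1 point per control library, circles for library 1 and triangles for library 2, blue for day 5 and red for day 14. TRA values in clonotypes of 10 or more cells at day 14 (2.56 and 2.67) lie above those of cells with a receptor of their own (1.97 and 2.15).

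The large clones differed widely in the receptor molecules they held. In day 14 library 1 the TRBV17 clonotype with TRAV6-4 had a median of 44 TRB UMIs, against 5.5 in the TRBV19 clonotype and 5 in the largest TRBV5 clonotype. The TRBV19 clonotype had a median of 11 TRA UMIs, more than its TRB median. In library 2 the TRBV13-1 clonotype with TRAV7-5 had a median of 26 TRB UMIs, and the TRBV12-1 clonotype with TRAV5-1 a median of 8.

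The KO mice, whose libraries share no sample with the controls, had fitted changes of the same sign in all 8 named segments. How many of all 98 segments kept their sign was not counted, so this cannot be set against the whole. TRAV11 and TRAJ18 belong to 1 kind of cell, so these are not 8 separate results. In KO mice 3 of 98 segments passed (3.06%), the same 3 that fell in controls, with TRAV11 at -2.61, TRAJ18 at -2.11 and the joint name at -1.50 (edgeR adjusted p = 0.000445, 0.00106 and 0.00515). TRAJ27 was at 1.08 in KO mice and did not pass (edgeR adjusted p = 0.204). TRAV7-6 was at 0.81 (0.716), with 1 day 14 KO library below both day 5 KO libraries. That does not show a difference from the controls: the interaction was -1.34 for TRAJ27 and -1.94 for TRAV7-6 (edgeR adjusted p = 0.901 for each). Over all 98 segments edgeR called 0 interactions, with 4 at an unadjusted p under 0.05, and DESeq2 also called 0, with 1. The TRAV7-6–TRAJ22 with TRBV5–TRBJ2-7 combination was found in 1 and 22 cells of the KO libraries of day 14 and in 0 at day 5. Expanded clonotypes held 4.09% and 2.39% of paired cells in KO mice at day 5 and 54.4% and 48.5% at day 14. The depth was 452 paired cells as in controls, except that the day 5 KO libraries held only 416 and 376.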

How the data were processed

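The deposited contig tables give, per the file headers, 1 line for each assembled chain with its segments, CDR3, calls and counts of reads and UMIs. The submitters' processing notes name CASAVA 1.8, Cell Ranger 3.1.0, R 4.1.2, Seurat 4.0.0 and GRCm38, with no role, and no more is given in the sources used here. Ties in UMIs were broken by reads, which were even numbers throughout. Near-identical TRAV copies were merged, from 88 names to 47. Both chains' V, J and CDR3 nucleotides defined a clonotype.

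Cell counts of 98 segments (40 or more cells over the 8 TCR libraries) were fitted by edgeR 4.0.16 in R 4.3.3 over day and genotype, with the cells holding the chain as offset, no TMM factors and Benjamini-Hochberg adjustment. All 8 libraries share 1 estimate of spread. DESeq2 1.42.0 and the other alternatives are given in the closing section. The 12 measures were compared by exact permutation over libraries (Python 3.11.15, scipy 1.17.1). Depth was equalised at 452 paired cells by the exact expectation.

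Named were the segments past the threshold (with fewer than 8, the first 8 by p), 2 to 4 members of each list by size of change, and the 3 most frequent clonotypes of a day 14 and the most frequent of a day 5 library. Members, lists and rules were chosen with earlier results of these data known. RefSeq GRCm38.p6 gave positions for 97 of 98 segments. Intervals are 95% Wilson intervals. A count of 0 allows up to 3 counts.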

Additional observations from a re-analysis of the deposited data

Results flagged for a closer look

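Barcodes that were not called cells, which none of the comparisons used, also held receptor chains. Productive TRAV11 to TRAJ18 chains numbered 18 of 62 TRA chains (29.0%) and 21 of 100 (21%) in the day 5 control libraries, and 11 of 146 (7.53%) and 6 of 136 (4.41%) at day 14. The order of the days was that of the cells. Numbers above 3 were listed, a cut that tests nothing. Of the TRB chains in these barcodes, 41.5% and 59.5% at day 5 and 79.5% and 69.3% at day 14 were also seen in cells. These barcodes are therefore no independent check on the cells. TRB chains of clonotypes with 10 or more cells made up 3.77% and 2.70% of the TRB chains in these barcodes at day 5 and 45.4% and 36.6% at day 14.

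Contigs of the delta chain in cell barcodes numbered 4 in each day 5 control library and 5 in day 14 library 1, above that same cut for listing, and 2 in day 14 library 2. None was productive.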

How the results depend on the processing

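Of the alternatives to the counts of calls and to the 12 measures, 127 kept a measure's direction or a count of calls within 1.5 times. Counts within that range need not hold the same segments. Some of the 127 changed the size of a measure by over 1.5 times, as given beside each result. Another 11 turned the direction, and beyond that range 2 gave more calls and 2 fewer. The 4 segment calls became 7 with each clonotype counted once, 0 without iNKT-type cells, and 2 to 7 when 1 library was left out, where edgeR takes the lone library to vary like the others. Fewest came without day 5 library 1, and most without day 14 library 1, which added TRAJ43, TRAV5-1 and TRAV7-5. The replicate block gave 4, the same segments, and the correlation of same-numbered deviations was 0.057. Neither can settle whether same-numbered libraries were paired, which the labels do not state. Cells with 2 TRA chains changed to -1.20 points without the most frequent TRB chain of each library. The TRB UMI difference of 0.10 became -0.093 with each clonotype once and -0.13 without expanded clonotypes, and -0.087 to 0.30 with 1 library left out. The TRA CDR3 length difference of 0.016 residues became -0.0121 with 2 or more UMIs, -0.397 over cells, and -0.0238 to 0.0559 with 1 library left out. Hydropathy became -0.0361 over cells. The J beta 2 share became 2.76 points with each clonotype once and 2.39 without expanded clonotypes. The alternatives without expanded clonotypes and without the most frequent TRB chain were chosen after seeing the data. The causes were not tested. With each clonotype counted once the median of all segments moved by 0.28, and without iNKT-type cells by -0.26. With 2 libraries a day, no permutation test can pass 0.05, and with 23 and 40 iNKT-type cells at day 14 their makeup is known only roughly.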

Other observations

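A D beta segment was named in the deposited tables for 27.9% and 23.5% of TRB cells at day 5 and for 20.3% and 13.3% at day 14. With each TRB chain counted once the shares were 26.2% and 24.8% at day 5 and 18.9% and 22.0% at day 14. Both day 14 libraries lay below both day 5 libraries by either count. Calling D depends on how many D bases remain in the CDR3, and no test was run.

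In day 14 library 1 the same alpha chain, TRAV13-1–TRAJ32, was found with TRBV13-1–TRBJ2-5 in 19 cells and with TRBV29–TRBJ2-3 in 14 cells. These are separate beta chains, so the choice of alpha chain does not split the 2 clonotypes. Whether 1 clone carried both beta chains and was split by the choice of beta chain was not tested.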
